A study of Homo sapiens with 8 samples.

Results

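Genes of ATG8 proteins and of the proteins that conjugate them to membranes were examined for DAXX, DNMT1 and H3(Lys4) ChIP-Seq peaks. The 10 genes, of 19812 protein-coding genes in all, were MAP1LC3A, MAP1LC3B, GABARAP, GABARAPL1 and GABARAPL2 (5 ATG8 proteins) and ATG7, ATG3, ATG12, ATG5 and ATG16L1 (5 conjugation genes). A peak belonged to a gene when it lay inside the gene or within 50 kb of it (the window, GENCODE on hg19), and no measured value entered this choice. PC3, an androgen-independent human prostate cancer line, was profiled as cells that stably carry a DAXX shRNA from a puromycin-selected lentivirus (K/D) and as control cells (WT). The labels call the control wild type while the series text speaks of a control shRNA, so WT stands for either. Each antibody gave 1 library per line, and the H3(Lys4) antibody label does not spell out the methylation state. Input libraries of K/D and WT carry no peak list here.

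Autophagy encloses cell material in a double membrane for digestion in the lysosome. ATG8 proteins resemble ubiquitin and become attached to a lipid of the growing membrane. ATG7 activates them, ATG3 transfers them, and a complex of ATG12, ATG5 and ATG16L1 directs the transfer to the membrane. DAXX delivers histones to chromatin and can repress transcription, DNMT1 is the maintenance DNA methyltransferase, and methylation of H3 at Lys4 marks promoters and enhancers.

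The K/D and WT lists held 42876 and 59761 DAXX peaks, 595 and 2234 DNMT1 peaks, and 72181 and 72064 H3(Lys4) regions. The share of tags inside peaks was 6.83% in K/D and 15.77% in WT for DAXX, 0.07% and 0.26% for DNMT1, and 15.07% and 23.94% for H3(Lys4), with 12050101 to 18705056 tags per library. With 1 library per group no difference between K/D and WT could be tested, and a peak missing from a list was not called there, which does not show that the site was empty. The part of the lower enrichment in K/D in the differences below was not tested. No RNA or protein value is used here, so the DAXX level of the K/D cells could not be read from these files. The PC3 label was checked with H3(Lys4) regions within 1 kb of a transcription start site (TSS). They were found at 7 of 7 epithelial and PC3-expressed genes in K/D and 6 of 7 in WT, where CAV1 had none, at 1 of 5 androgen-driven luminal genes in K/D and 2 of 5 in WT, and at 0 of 5 genes of other cell types in either line.

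The windows of the 10 genes held 56 DAXX peaks in K/D and 88 in WT. Most of the genes had a DAXX peak within 10 kb of a TSS in both lines. In K/D, 7 of 10 genes had a DAXX peak centre within 10 kb of a TSS, against 41.8% of all protein-coding genes. In WT, 9 of 10 did, against 51.2% of all genes. In the first 50% of each list, 5 of 10 genes had such a peak in K/D and 6 of 10 in WT. The share of all genes under that limit was not computed. The median distance over the 10 genes was 2.11 kb in K/D and 4.16 kb in WT, where all genes had medians of 15.6 kb in K/D and 9.31 kb in WT. The genes fell into those with a DAXX peak at the promoter (MAP1LC3B, GABARAP, GABARAPL1 and, in K/D, ATG5), those with a peak in an intron close to the start (ATG12 and ATG16L1), and those whose nearest peak was farther away (MAP1LC3A, GABARAPL2, ATG3 and ATG7).

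**Figure D1:**
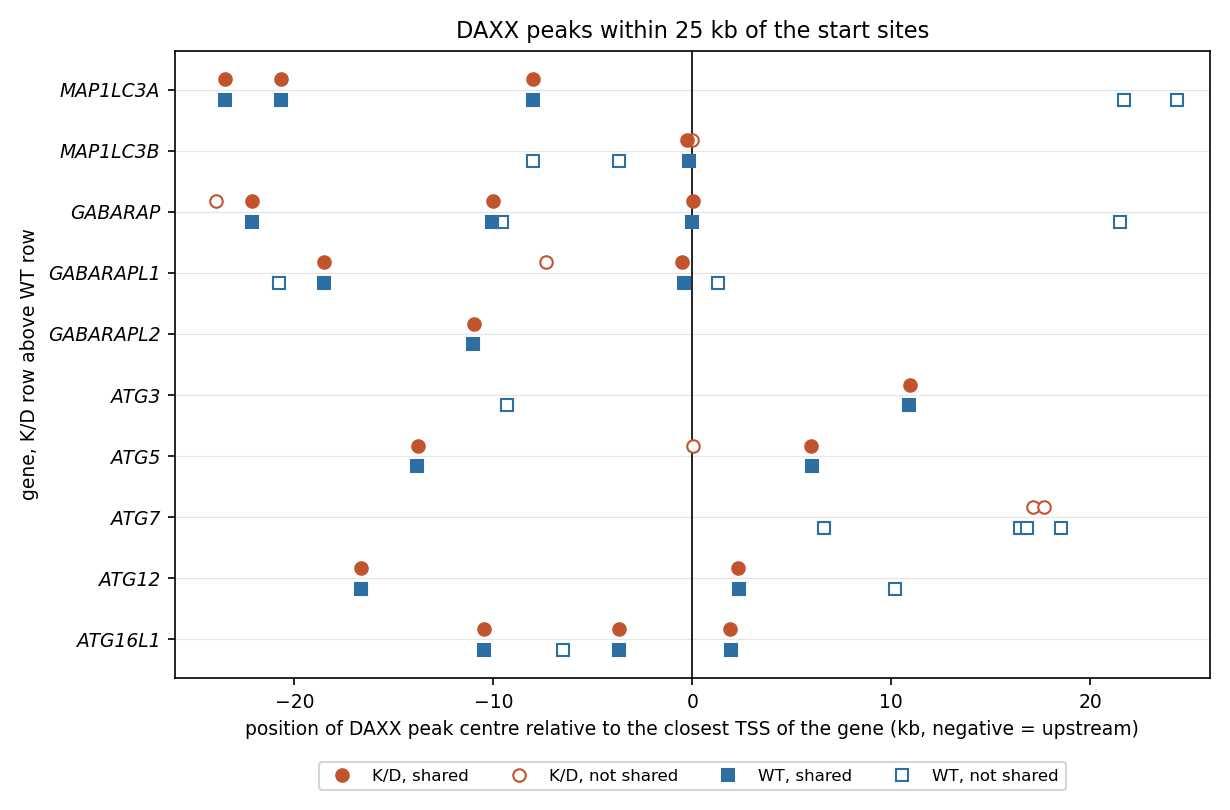
DAXX peak centres within 25 kb of the closest TSS of each gene (horizontal axis in kb, negative upstream), with K/D circles above WT squares; filled symbols have a counterpart in the other line. MAP1LC3B (14 bp) and ATG5 (7 bp) each have an open K/D circle at the TSS, and the peaks around the ATG7 start are all open.

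A peak counted as shared when it had at least 1 bp in common with a peak of the same antibody in the other line. Of the 56 K/D DAXX peaks, 43 were shared (76.8%, exact Clopper-Pearson 95% interval 63.6 to 87%), beside 67.4% of all K/D DAXX peaks. Of the 88 WT DAXX peaks, 43 were shared (48.9%, interval 38.1 to 59.8%), beside 48.4% of all WT DAXX peaks. The intervals here and below cover counting error only, and peaks of 1 list share a library. Both intervals include the share of the whole list. Shared peaks were at nearly the same base, with a median shift of 22 bp between the K/D and WT centres (range 1 to 95 bp).

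**Figure D2:**
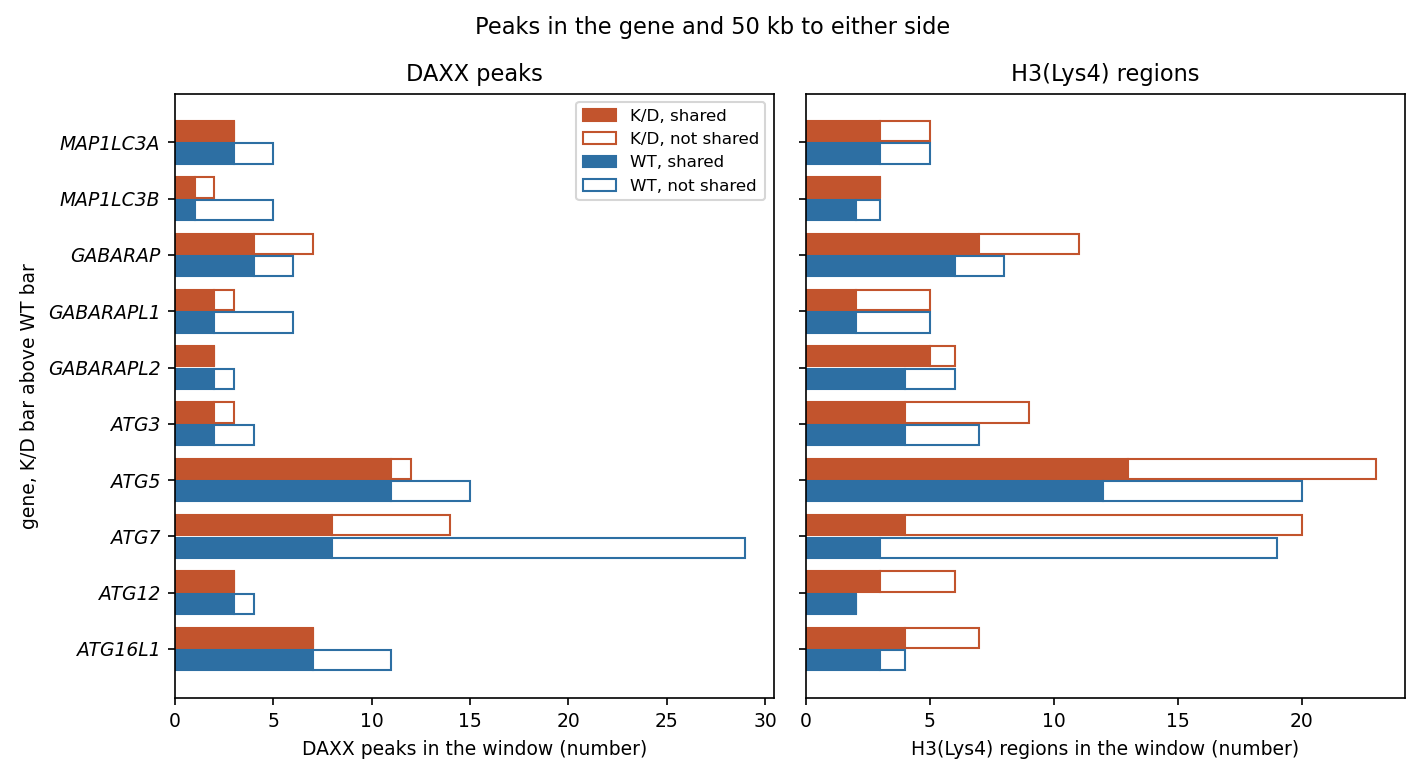
Number of DAXX peaks (left) and H3(Lys4) regions (right) per window, with the K/D bar above the WT bar; filled parts are shared with the other line. ATG7 has 14 K/D and 29 WT DAXX peaks with 8 shared, and GABARAP is the gene with more DAXX peaks in K/D (7) than in WT (6).

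Strength is given as the place of a peak in the deposited list, as a percent of the way down (the first peak near 0%), because all scores are 1. Places are known to within runs of peaks that span a median of 2.91% of the K/D DAXX list and 1.87% of the WT DAXX list at these genes.

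Among the ATG8 proteins, MAP1LC3B (chr16:87417559-87438385), the form of LC3 used as the standard marker of autophagosomes, had 2 DAXX peaks in K/D and 5 in WT. A K/D peak at chr16:87417460-87417630 was centred 14 bp upstream of the first MAP1LC3B TSS (place 36%) and had no WT counterpart, with the nearest WT centre 4707 bp away. FBXO31 also has a start beside this TSS, so the peak is assigned to MAP1LC3B by position only. A further K/D peak lay 279 bp upstream of an internal TSS of the gene (place 45.2%) and was shared with a WT peak 189 bp upstream of it (place 49.8%). The other 4 WT peaks of the window had no K/D counterpart, the closest of them 3688 bp upstream of the internal TSS (chr16:87422166-87422338, place 27.4%) and nearer to a start of FBXO31, 1204 bp away. The upstream part of the K/D promoter peak is printed here because the peak is absent from the WT list, and the part beyond the TSS is left out. All sequences here are the forward strand of hg19, and this one holds 3 matches on either strand to the SP1 motif GGGGCGG, in capitals.
MAP1LC3B K/D DAXX peak, chr16:87417460-87417558: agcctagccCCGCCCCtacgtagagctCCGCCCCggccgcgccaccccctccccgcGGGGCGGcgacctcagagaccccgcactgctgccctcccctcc
The H3(Lys4) data differed at the same start. In WT a region of 3263 bp covered the first TSS (place 10.6%), and its centre was 949 bp from the FBXO31 start beside it. In K/D, regions of 718 bp and 656 bp ended at least 1343 bp before it. At the internal TSS both lines had a region, 245 bp away in K/D and 270 bp away in WT.

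MAP1LC3A (chr20:33134658-33148149), which encodes a close relative of LC3B, had 3 DAXX peaks in K/D, all shared, and 5 in WT. The nearest lay 7999 bp upstream of the first TSS in K/D (place 88.3%) and 8022 bp in WT (place 94.6%), late in both lists. WT peaks 21697 and 24334 bp downstream of the second TSS had no K/D peak within 38745 bp. MAP1LC3A was the gene without an H3(Lys4) region near a TSS in K/D, where the nearest region edge was 21801 bp away. In WT a region of 1504 bp (chr20:33145398-33146901, place 14.5%) covered the second TSS.

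GABARAP (chr17:7143327-7145768), the founding member of its subfamily, carried a DAXX peak on its TSS in both lines, centred 42 bp downstream in K/D (place 92.6%) and 29 bp upstream in WT (place 70%). Both lay on H3(Lys4) regions that covered the TSS, 2410 bp wide in K/D and 3638 bp wide in WT. Its window has 9 other protein-coding genes, and several peaks lay at their promoters. K/D peaks 892 and 129 bp upstream of SLC2A4, the insulin-responsive glucose transporter, had no WT counterpart, with places of 75.9% and 87.7%, while a WT H3(Lys4) region on the SLC2A4 start (653 bp, place 67.6%) had no K/D counterpart. A WT peak 29 bp upstream of ELP5 (place 51.8%) had no counterpart, but a K/D centre was 465 bp from it.

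GABARAPL1 (chr12:10365057-10375727) had 3 DAXX peaks in K/D and 6 in WT. Its promoter peak was 500 bp upstream of the TSS in K/D (place 33.8%) and 431 bp upstream in WT (place 35.4%), the strongest DAXX peaks of this window in both lists. The WT peak, shown because it is the best placed WT DAXX peak in a promoter of one of the 10 genes, contains the AP-1 motif TGANTCA (N, any base), in capitals.
GABARAPL1 WT DAXX peak, chr12:10364918-10365090: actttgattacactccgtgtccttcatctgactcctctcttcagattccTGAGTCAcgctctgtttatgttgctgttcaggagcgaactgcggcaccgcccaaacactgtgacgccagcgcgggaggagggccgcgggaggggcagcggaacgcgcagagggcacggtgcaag
A WT peak 1267 bp downstream of the TSS (place 93.7%) was not called in K/D, and a K/D peak 7355 bp upstream (place 96.6%) was not called in WT. H3(Lys4) regions of 501 bp flanked the start in K/D, 514 bp upstream and 630 bp downstream of a TSS, while in WT 1 region of 2824 bp covered it (place 6.17%).

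GABARAPL2 (chr16:75600273-75611779) had no DAXX peak within 10 kb of a TSS. The nearest, 10992 bp upstream in K/D (place 23.1%) and 11010 bp in WT (place 24.9%), lay at another promoter, 107 bp (K/D) and 89 bp (WT) upstream of TMEM231, a gene of the cilium. Its H3(Lys4) regions were at its own promoter in both lines, on the TSS in K/D and 107 bp from it in WT.

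Among the conjugation genes, those of the ATG12, ATG5 and ATG16L1 complex shared most of their WT DAXX peaks with K/D. So did MAP1LC3A (60%), GABARAP (66.7%) and GABARAPL2 (66.7%). The share was 75% at ATG12 (interval 19.4 to 99.4%) and 63.6% at ATG16L1 (interval 30.8 to 89.1%). All WT DAXX peaks in the same bands, each of 10%, of the list had 68.9% and 47.9%, inside these intervals. ATG12 (chr5:115163897-115177534), the ubiquitin-like protein that is joined to ATG5, had 3 peaks in K/D, all shared, and 4 in WT. The peak in its intron, 2302 bp from the TSS in K/D and 2325 bp in WT, had places of 21.6% and 21.8%. The strongest DAXX peak of all 10 windows lay 32 kb upstream, in an intron of AP3S1, a gene of the AP-3 vesicle adaptor that starts beside ATG12. Its place was 0.569% in K/D and 0.335% in WT. The WT peak, printed as that strongest site, holds 1 AP-1 and 1 RUNX motif (TGTGGTT), in capitals. At this site the K/D DAXX peak lay on a K/D H3(Lys4) region (place 78.5%) and the WT peak lay on none.
AP3S1 intron WT DAXX peak, chr5:115209204-115209376: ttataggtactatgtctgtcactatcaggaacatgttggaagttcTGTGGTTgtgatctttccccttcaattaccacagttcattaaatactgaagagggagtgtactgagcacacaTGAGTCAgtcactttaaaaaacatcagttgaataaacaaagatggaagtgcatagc

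ATG5, the partner of ATG12, had 12 DAXX peaks in K/D and 15 in WT, with 11 shared. This was 73.3% of the WT peaks (interval 44.9 to 92.2%), against 41.3% of all WT DAXX peaks in the same bands, each of 10%, of the list. The ATG5 gene record (chr6:106493298-106773666) is 280 kb long and spans PRDM1, whose starts were nearest to 5 of the 12 K/D peaks and 6 of the 15 WT peaks. A K/D peak at chr6:106773521-106773691 was centred 7 bp downstream of the closest ATG5 TSS (place 49.7%) with no WT centre within 13850 bp. The next was shared, 5963 bp (K/D, place 95.4%) and 5989 bp (WT, place 79.5%) from an internal TSS and on an H3(Lys4) region in both lines. The best placed peaks of the window were both shared and lay deep in the gene record, nearer to PRDM1. The K/D one was 123181 bp from the ATG5 TSS (place 18.9%, and 96.6% for its WT counterpart), and the WT one was 180872 bp from it (place 11.2%, and 27.2% for its K/D counterpart). The bases of the K/D promoter peak that precede the transcript, again a site absent from the WT list, hold none of the 12 motifs searched.
ATG5 K/D DAXX peak, chr6:106773638-106773691: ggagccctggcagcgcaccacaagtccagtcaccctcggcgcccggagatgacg
In K/D, 13 of 56 DAXX peaks had no WT counterpart, and 4 of these 13 were in a promoter (1000 bp upstream to 100 bp downstream of a TSS): those of MAP1LC3B and ATG5 and the pair at SLC2A4. Over the whole K/D list, 8.48% of the peaks without a WT counterpart were in a promoter. Of the 43 shared K/D peaks 6 were in a promoter, beside 6.45% of all shared K/D peaks, so promoter peaks were not limited to those without a counterpart. The windows were drawn around genes while the lists cover the whole genome, so these promoter shares are not directly comparable.

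ATG16L1 (chr2:234118697-234204320), which links the complex to the membrane, had 7 DAXX peaks in K/D, all shared, and 11 in WT. Its peak nearest a TSS, 1913 bp downstream in K/D (place 18.7%) and 1937 bp in WT (place 18.8%), lay on an H3(Lys4) region in both lines and was the best placed of the window in K/D. The best placed in WT was 85110 bp upstream (place 15.4%) and was shared with a K/D peak at place 26.9%. H3(Lys4) regions began 775 bp from a TSS in K/D and 263 bp in WT. Peaks 3668 bp (K/D) and 3667 bp (WT) upstream had centres 1 bp apart. The WT peaks without a counterpart included 1 at 6482 bp upstream (place 30.4%), 2814 bp from the nearest K/D centre.

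ATG3 (chr3:112251357-112280893), the transferring enzyme, had 3 DAXX peaks in K/D and 4 in WT. Its intron peak, 10952 bp from the TSS in K/D (place 55.9%) and 10895 bp in WT (place 65.2%), was shared. The nearest WT peak, 9294 bp upstream in an intron of SLC35A5 (place 33.7%), had no K/D centre within 20292 bp, which placed ATG3 outside the 10 kb limit in K/D and inside it in WT. The best placed peak of the window was shared and lay 42723 bp upstream in K/D (place 20.5%) and 42678 bp upstream in WT (place 27.7%), with CCDC80 as the gene of the closest TSS. An H3(Lys4) region at its start was 1901 bp wide in K/D, 967 bp from the TSS, and 3511 bp wide in WT, 69 bp from it.

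**Figure D3:**
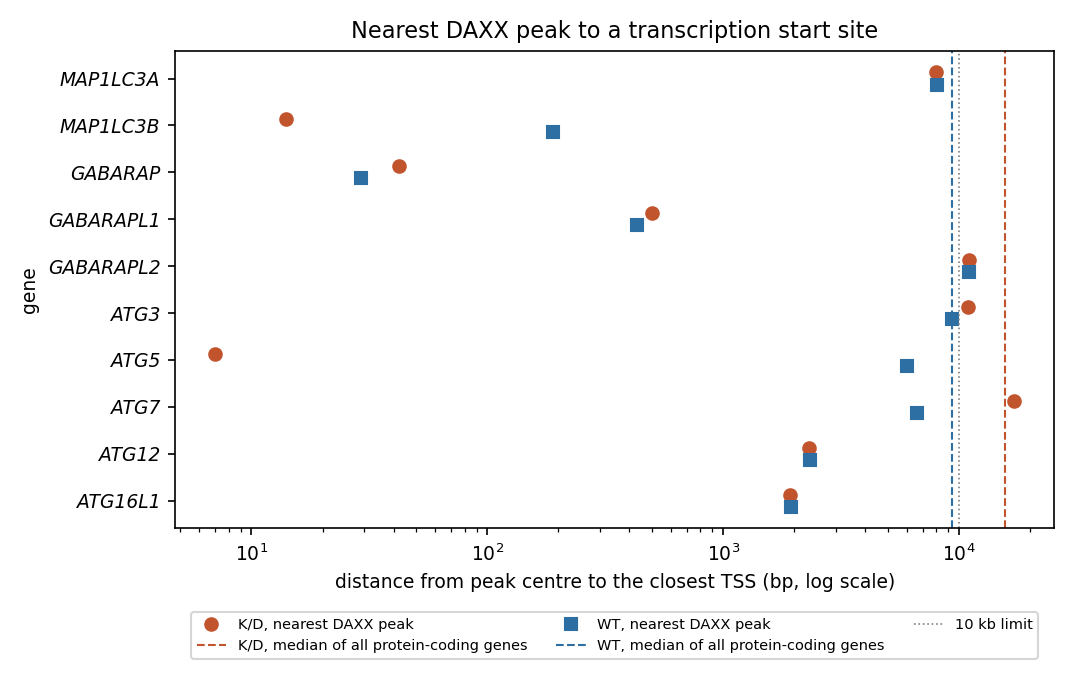
Distance from the nearest DAXX peak centre to the closest TSS of each gene (bp, log scale), with K/D circles above WT squares; dashed lines are the medians of all protein-coding genes and the dotted line is the 10 kb limit. ATG5 is at 7 bp in K/D and 5989 bp in WT, and ATG7 at 17141 bp in K/D and 6595 bp in WT.

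ATG7 (chr3:11313995-11599139), the activating enzyme on which both conjugation branches depend, had the largest shortfall of shared WT DAXX peaks among the 10 genes against the same bands of the list. It is 285 kb long, and its window held 14 DAXX peaks in K/D and 29 in WT. Of the 29 WT peaks 8 were shared (27.6%, interval 12.7 to 47.2%), against 52.5% of all WT DAXX peaks in the same bands of the list. In a comparison chosen after this value was seen, among the 303 genes with at least 20 WT DAXX peaks in their window, whose windows can overlap, the median shared percent was 50% (quartiles 43.4 and 57.1%), and 2.64% of these genes were at or below ATG7. Without ATG7, 59.3% of the WT DAXX peaks of the other genes (35 of 59, interval 45.7 to 71.9%) and 83.3% of their K/D peaks (35 of 42) were shared. The ratio of K/D to WT peak numbers at ATG7, 0.483, was closer to that of other genes, with 12.2% of the 303 genes at or below it and a median of 0.667.

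Of the 21 WT peaks without a counterpart at ATG7, 16 were inside the gene and 5 in the flanks. A K/D centre lay within 1000 bp of 7 of the 21 (33.3%), against 9.67% of all WT DAXX peaks without a counterpart. Examples stood 16.5 to 18.5 kb from the TSS, where K/D had 2 peaks and WT had 3 with no base in common, and again near 237 kb, where a K/D peak fell between a pair of WT peaks at 383 and 385 bp. Allowing a gap of up to 250 bp between peaks, a choice made after seeing the data, raised the shared WT DAXX peaks over the 10 genes to 47 of 88 (53.4%, beside 49.7% of the list). All of this gain was at ATG7, where 12 of 29 WT DAXX peaks and 11 of 14 K/D DAXX peaks then counted as shared. The low share at ATG7 thus depends in part on the 1 bp rule.

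The nearest WT peak to the ATG7 TSS, 6595 bp into the gene at chr3:11320611-11320783 (place 21.7%), had no K/D centre within 10546 bp. In K/D the nearest peak was 17141 bp from the TSS (place 63.1%). A WT peak at chr3:11540750-11540922 (place 7.54%) was the strongest WT peak of all 10 windows without a counterpart, with no K/D centre within 10149 bp. Of the 6 WT DAXX peaks of these windows in the first 10% of the list 5 were shared, beside 93.7% of all WT DAXX peaks there. The best placed ATG7 peak of WT, 78070 bp into the gene (place 4.91%), was shared with K/D (place 14.6%). The best placed K/D peak of the window was beyond the gene, 677 bp from a TSS of VGLL4 (place 8.75%), and was shared with a WT peak at place 5.75%. These 3 WT peaks are printed to set the sites missing from the K/D list, of which the first holds AP-1 and CTCF core (AGGNGGC) motifs and the next a TEAD motif (GGAATG), beside a shared site, which holds a nuclear receptor half-site (TGACCT). Each is 1 example, so no motif difference can be read from them. Over the whole WT DAXX list, AP-1 was in 51.1% of shared peaks and 42.5% of those without a counterpart. In the same order, the CTCF core was in 12.9% and 13.3%, TEAD in 16.2% and 15%, and the half-site in 38.3% and 23.9%. Motif matches are in capitals.
ATG7 WT DAXX peak nearest the TSS, not shared, chr3:11320611-11320783: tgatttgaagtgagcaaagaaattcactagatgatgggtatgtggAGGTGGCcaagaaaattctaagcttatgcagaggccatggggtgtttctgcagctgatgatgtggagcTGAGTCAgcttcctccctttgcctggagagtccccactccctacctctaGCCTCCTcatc
ATG7 strongest WT DAXX peak not shared, chr3:11540750-11540922: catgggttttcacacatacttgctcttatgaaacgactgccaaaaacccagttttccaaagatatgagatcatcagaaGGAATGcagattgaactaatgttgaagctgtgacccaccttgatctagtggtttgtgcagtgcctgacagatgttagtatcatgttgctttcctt
ATG7 strongest WT DAXX peak, shared, chr3:11392086-11392258: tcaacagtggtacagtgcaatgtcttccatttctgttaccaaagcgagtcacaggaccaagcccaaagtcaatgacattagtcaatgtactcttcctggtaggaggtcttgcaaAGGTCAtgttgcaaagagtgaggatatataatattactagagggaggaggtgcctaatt
The window also reaches HRH1 and VGLL4. The closest TSS was that of ATG7 for 7 of the 14 K/D peaks and 11 of the 29 WT peaks, and that of VGLL4 for 7 K/D and 15 WT peaks, so the peaks are assigned to ATG7 by position only.

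**Figure D4:**
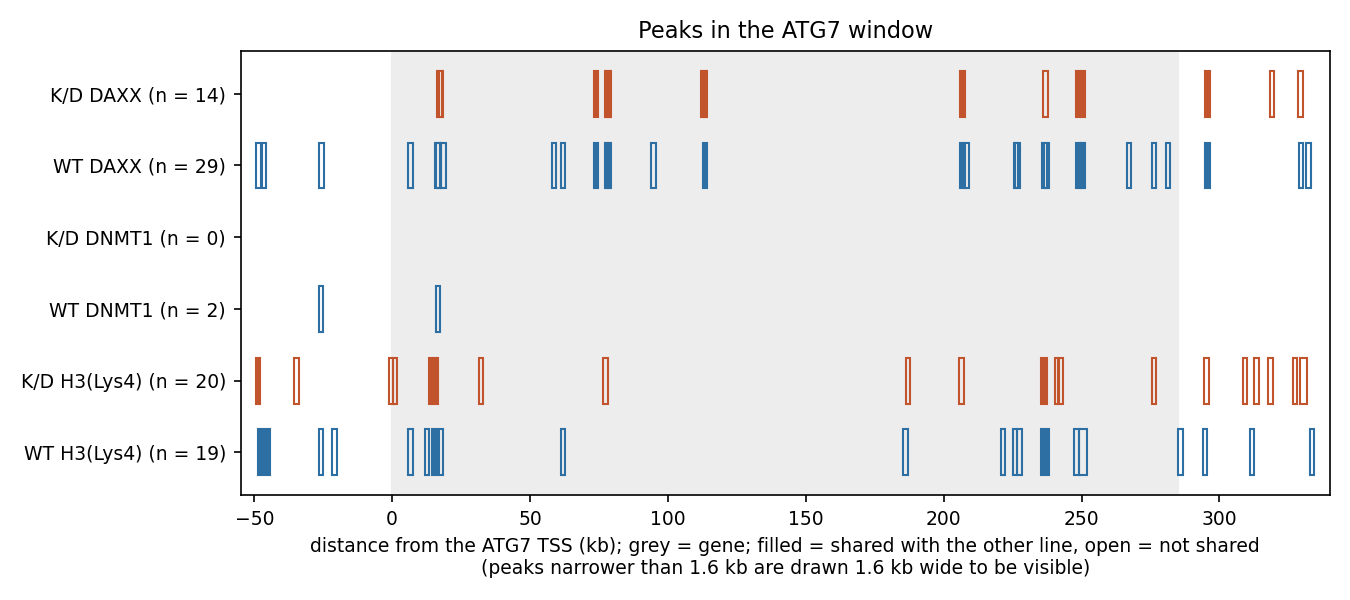
Peaks of the 6 lists in the ATG7 window against the distance from the ATG7 TSS (kb), with K/D rows above WT rows; grey marks the gene, filled boxes are shared with the other line and open boxes are not. Open boxes prevail in WT DAXX (21 of 29) and in both H3(Lys4) rows (16 of 20 in K/D, 16 of 19 in WT), and K/D DNMT1 has none.

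The H3(Lys4) regions of ATG7 showed the same low sharing. Of the 20 K/D regions 4 were shared and of the 19 WT regions 3 (15.8%), against 52.4% of all WT regions in the same bands of the list. With a gap of up to 250 bp allowed, 6 of the 20 K/D and 5 of the 19 WT regions counted as shared. The start of the gene differed as well. K/D regions lay 242 bp upstream of the TSS (501 bp wide, place 34.1%) and 446 bp downstream (1020 bp wide, place 9.99%), while WT had none within 1 kb and its nearest region edge was 5684 bp downstream, around the WT DAXX peak described above.

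Over the 10 windows there were 95 H3(Lys4) regions in K/D and 79 in WT. They covered 86.8 kb in K/D and 115 kb in WT, and the median width was 668 bp in K/D and 1087 bp in WT, beside 644 bp and 756 bp in the whole K/D and WT lists. Of the K/D regions 48 were shared (50.5%), beside 48.2% of all K/D regions, and of the WT regions 41 were shared (51.9%), beside 45.8% of all WT regions. In the same bands of the lists, 49.9% of all K/D regions and 53.2% of all WT regions were shared. Without ATG7 the shared part was 44 of 75 in K/D (58.7%) and 38 of 60 in WT (63.3%). An H3(Lys4) region lay within 1 kb of a TSS of 9 of 10 genes in K/D, where 55% of all genes had one, and of 9 of 10 genes in WT, where 58% did. The exceptions were MAP1LC3A in K/D and ATG7 in WT.

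**Figure D5:**
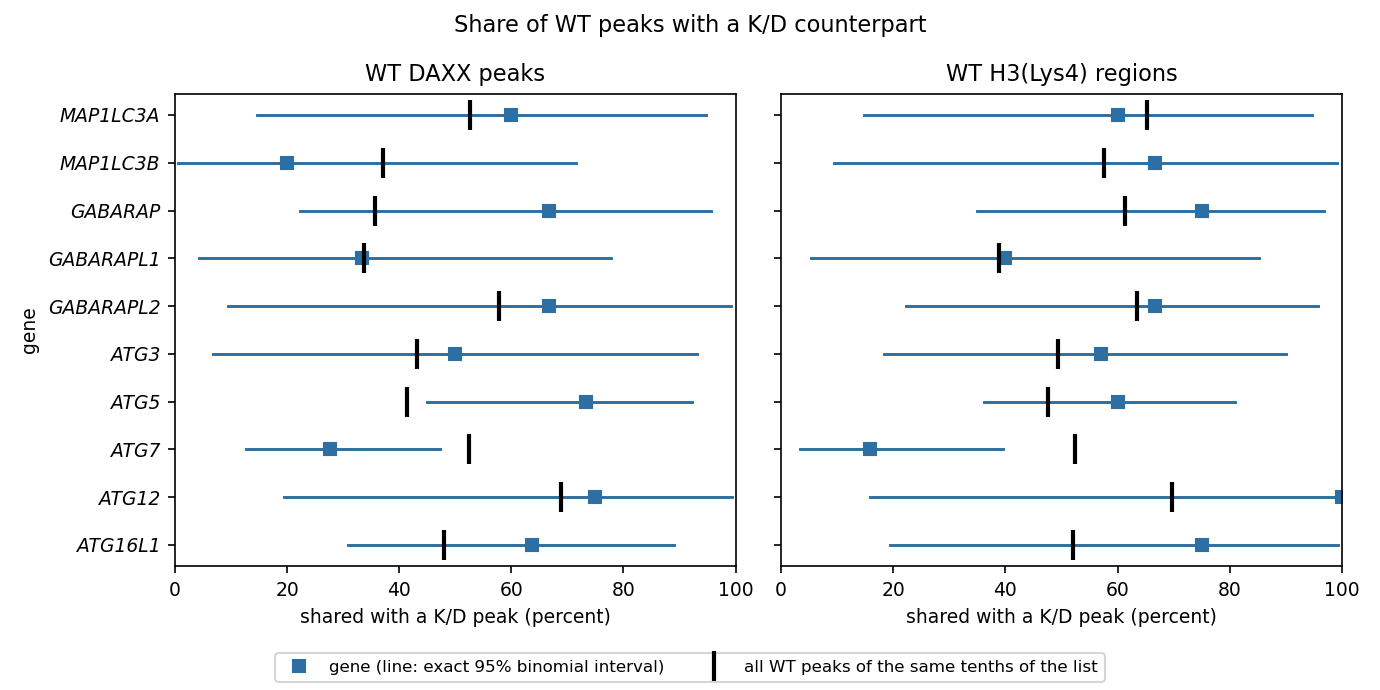
Percent of the WT DAXX peaks (left) and WT H3(Lys4) regions (right) of each gene that share a base with a K/D peak (squares, with exact 95% binomial intervals that cover counting error only); black bars give the percent over all WT peaks in the same bands of the list. At ATG7 the upper bound of the interval is below the bar in both panels, and at ATG5 the lower bound is above it for DAXX.

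DAXX peaks lay on H3(Lys4) regions of the same line in 21 of 56 cases in K/D (37.5%, interval 24.9 to 51.5%), beside 28.7% of all K/D DAXX peaks, and in 30 of 88 cases in WT (34.1%, interval 24.3 to 45%), beside 37.4% of all WT DAXX peaks. In WT, 13 of the 43 shared peaks and 17 of the 45 without a counterpart were on such a region.

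No DNMT1 peak of the K/D list lay in any of the 10 windows, and the WT list had 3. None of the genes had a DNMT1 peak within 10 kb of a TSS in either line, where 0.888% of all genes had one in K/D and 2.54% in WT. The WT peaks were 16540 bp downstream (place 30.6%) and 25747 bp upstream (place 79.3%) of the ATG7 TSS and 20628 bp upstream of GABARAPL1 (place 98.3%). None of the 3 was shared with K/D, beside 8.59% of the whole WT list and 1.64% of the WT DNMT1 peaks in the same bands of the list. Places of these WT DNMT1 peaks are known to within runs that span up to 20.3% of the list, so their bands are approximate. Each of the 3 overlapped a WT DAXX peak, by 72, 52 and 22 bp, and in the whole WT DNMT1 list 52.6% of peaks overlapped one. None of these 3 WT DAXX peaks had a K/D counterpart, although at the ATG7 intron site a K/D DAXX centre lay 680 bp away. The DNMT1 peak in the ATG7 intron is printed as the site inside one of the genes where DAXX and DNMT1 peaks overlapped. Its printed bases hold none of the 12 motifs, but a RUNX motif lies within 100 bp of its centre.
ATG7 intron WT DNMT1 peak, chr3:11330578-11330706: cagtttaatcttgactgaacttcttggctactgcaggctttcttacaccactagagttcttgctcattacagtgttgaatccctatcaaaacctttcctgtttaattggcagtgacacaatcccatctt

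Motif shares of the DAXX peaks are given beside those of the whole lists, with no test. The 12 motifs were read from either strand in the 100 bp on each side of a peak centre. AP-1 (TGANTCA) was found in 22 of 56 K/D peaks (39.3%, list 45.3%) and in 40 of 88 WT peaks (45.5%, list 46.6%). The nuclear receptor half-site (TGACCT) was found in 20 K/D peaks (35.7%, list 35.5%) and 27 WT peaks (30.7%, list 30.9%). The CTCF core (AGGNGGC) was found in 12 K/D peaks (21.4%, list 13.2%) and 15 WT peaks (17%, list 13.1%). In K/D, AP-1 was in 2 of the 13 peaks without a counterpart (list 33.7%) and 20 of the 43 shared ones (list 50.9%). In WT it was in 18 of the 45 peaks without a counterpart (list 42.5%) and 22 of the 43 shared ones (list 51.1%). TCACGTGA, a form of the element bound by TFEB, the regulator of lysosomal and autophagy genes, was in 0 K/D and 0 WT peaks (0.203% and 0.196% of the K/D and WT lists). The E-box CACGTG, which that element contains, was in 0 K/D and 1 WT peaks (2.38% and 2.39% of the lists).

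The combination of nearby peaks was common at most of the genes and rarest at ATG7. DAXX within 10 kb and H3(Lys4) within 1 kb in both lines was found for MAP1LC3B, GABARAP, GABARAPL1, ATG5, ATG12 and ATG16L1, a pattern of 20% of all genes. ATG7, with DAXX in WT and H3(Lys4) in K/D, had a pattern of 1.65% of all genes, and among 37 other autophagy genes WIPI1, which binds the early autophagosome membrane, shared it. In those other genes, a DAXX peak was within 10 kb in K/D and WT for 6 and 5 of 8 further genes of the ATG8 system, 8 and 9 of 19 genes of initiation and lipid transfer, and 7 and 9 of 10 receptors and regulators. The share over all protein-coding genes was 41.8% in K/D and 51.2% in WT, and the 19 genes were near it. Their median distances were 14.3 kb in K/D and 10.5 kb in WT, beside 15.6 and 9.31 kb over all genes. ATG10, which joins ATG12 to ATG5, had DAXX peaks 167 bp (K/D) and 146 bp (WT) from a TSS. ATG4B and ATG4C, proteases that prepare ATG8 proteins for conjugation, resembled ATG5 in having a K/D peak at the TSS (34 and 27 bp away), with the nearest WT peaks at 10090 and 94504 bp. Of the 8 further ATG8-system genes, 2 had a DAXX peak within 10 kb in K/D only and 1 in WT only. The latter was MAP1LC3B2, at 61 bp in WT and 16731 bp in K/D. Of all 19812 genes, 1258 had one in K/D only and 3123 in WT only.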

How the data were processed

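ChIP-Seq peak lists of 6 immunoprecipitations were used, each list from 1 library compared with the input of the same line. Per the submitters' notes and the study's methods, the authors used CASAVA 1.8.2, Bowtie2 2.1.0 (hg19) and HOMER 4.6. Per the file headers, DAXX and DNMT1 peaks passed an FDR of 0.001, all lists passed limits of 4-fold and p 0.0001 over input, and tags of an old and a new run were joined. H3(Lys4) lists hold regions of variable width. The deposited score column holds 1 value for all peaks and was not used, so strength was read from the order of each list. Positions were used as deposited, without 113 peaks outside chromosomes 1 to 22, X and Y.

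Genes came from GENCODE 44 on GRCh37, with the starts of 63781 basic protein-coding transcripts and the GRCh37 sequence. Distances run from peak centres (DAXX, DNMT1) or nearest edges (H3(Lys4)) to the closest TSS. Windows, overlaps and motifs were computed with Python 3.11.15, pandas 2.3.3 and scipy 1.17.1, and the overlap and distance functions were tested on simulated data. By rule, all 10 genes were described with the peak nearest a TSS and the best placed peak of each list, and the text gives these for DAXX and, for H3(Lys4), mainly the regions near a TSS. Other genes are named where their start is nearer to such a peak or where they share a pattern. The exceptions, chosen after their values were seen, are SLC2A4, ELP5, CTDNEP1, MAP1LC3B2, ATG4B, ATG4C, BECN1 and UVRAG. The genes, the lists and the rules were chosen with earlier results of these data known. Groups have 1 library each, so no test was made between K/D and WT. The alternatives were other overlap rules, windows, TSS choices and the first 50% of each list.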

Additional observations from a re-analysis of the deposited data

How the results depend on the processing

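The percent of WT DAXX peaks shared with K/D (48.9%) moved to 65.2% for the first 50% of the WT list against the whole K/D list, beside 69.3% of all WT DAXX peaks there. The percent of WT H3(Lys4) regions shared (51.9%) moved to 11.4% with centres within 100 bp, 26.6% with at least 50% of each region in common, 65.4% for the first 50% of the WT list and 63.3% without ATG7. Over the whole H3(Lys4) lists the first 3 of these gave 9.46%, 23.1% and 62.1%. Counts followed the window by construction. In the gene body alone they were 30 K/D and 49 WT DAXX peaks, 1 WT DNMT1 peak, and 47 K/D and 44 WT H3(Lys4) regions. With 10 kb to either side they were 36 K/D and 57 WT DAXX peaks, 1 WT DNMT1 peak and 61 K/D H3(Lys4) regions, and with 100 kb to either side 128 WT H3(Lys4) regions. In the first 50% of each list they were 29 K/D and 46 WT DAXX peaks, 1 WT DNMT1 peak, and 52 K/D and 52 WT H3(Lys4) regions. Without ATG7, 1 WT DNMT1 peak was left. The gap of 250 bp, windows from transcript spans and leaving out ATG7 were added after seeing the data. Of 68 alternatives, 47 stayed within 1.5 times the count or inside the interval of the share. ATG5 had a WT DAXX peak within 10 kb of an internal TSS and not of the 5' end of its gene record. No paired analysis was possible because each group has 1 library. The share of DNMT1 tags inside peaks was low, 0.07% in K/D and 0.26% in WT, and its part in what was called was not tested.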

Other observations

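The windows reach many neighbouring genes, and the 10 genes had the closest TSS for 29 of 56 K/D DAXX peaks and 39 of 88 WT DAXX peaks. At GABARAP, peaks in both lines lay on the shared start of ELP5 and CTDNEP1 and upstream of CLDN7, which encodes a claudin of epithelial tight junctions. The CLDN7 peak had places of 24.2% in K/D and 28.2% in WT, and was the best placed peak of that window in both lists. At MAP1LC3A the best placed peaks lay in DYNLRB1, a dynein light chain gene, with places of 7.28% and 12.3% in K/D and of 8.32% and 6.66% in WT for the same sites.

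Among the other autophagy genes, UVRAG, a subunit of a Beclin 1 complex, was the gene with a WT DNMT1 peak within 10 kb, 486 bp from a TSS, with DAXX peaks 2393 bp (K/D) and 443 bp (WT) away. BECN1, which encodes Beclin 1, had its nearest DAXX peak 324 bp from a TSS in K/D and 21095 bp in WT. Of the 19 genes of initiation and lipid transfer, 2 had a DAXX peak within 10 kb in K/D only and 3 in WT only. TFEB and TFE3 shared the pattern of ATG3, with DAXX nearby in WT (4982 and 1376 bp) and farther away in K/D (43705 and 10675 bp).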
